A study of Oryza sativa with 6 samples.

Results

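The genes described here encode rice transcription factors of the WRKY, AP2/ERF, MYB, bZIP, bHLH and GATA families. Members were taken from the array's gene table: a transcript cluster (a group of probes read as 1 transcript) had to be paired with 1 gene whose symbol or synonym in the rice gene reference carries a family name followed by a number or suffix. This gave 49 of the 15140 genes that have such a cluster: 5 WRKY, 8 AP2/ERF, 5 MYB, 13 bZIP, 13 bHLH and 4 GATA genes, and AP25. AP25 matched by its letters alone: it is a name also used in rice for an aspartic protease, so it is counted among the 49 but placed in no family. The rule also leaves out JAMYB, a jasmonate-inducible MYB gene, but 0 clusters of it matched, so this changed nothing. Only 3 of the 49 matched through their own symbol, GATA15, TGA2.2 and OsbZIP39, and 46 through a synonym, and every member had a single cluster. Another 26 genes of the reference match by name but have no cluster of their own in the gene table, and are not analysed here.

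RNA came from shoot apices, dissected with the meristem and the youngest leaf primordia when the fifth leaf tip was just out. Wild type (WT) was sampled 3 times, and so was dsl1, a mutant named for its dwarf stature and narrow leaves that carries a lesion in a histone deacetylase gene. Each RNA was hybridised to 1 single-colour Affymetrix array, and the levels given are the authors' log2 expression values. The labels name no parent variety, no type of dsl1 lesion and no number of plants per sample. Nothing says that replicates came from separate plants, so a p-value here reflects the variation among these arrays alone, and that variation may be technical.

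These families carry much of the plant response to pathogens, drought, cold and hormones, and some members build the plant body. WRKY proteins bind W-box elements and act downstream of immune receptors and MAP kinases. AP2/ERF proteins include the DREB group, which switches on cold and drought genes. TGA-type bZIP proteins partner NPR1, the salicylic acid co-receptor, whereas other bZIP proteins serve abscisic acid or the unfolded protein response. Many bHLH proteins work as pairs, and small members that cannot bind DNA hold their partners back or release them. The comparison asks which of these regulators stand at another transcript level in an apex with an altered histone deacetylase.

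No member passed the test of dsl1 against WT. In limma with Benjamini-Hochberg adjustment over all 54922 clusters, 0 of the 49 had an adjusted p under 0.05, where 0.0255% of all clusters did. The smallest adjusted p among the members was 0.29, for MPH1. When the 15829 clusters with 1 gene were fitted alone, again 0 members passed, against 0.474% of those clusters, and the smallest adjusted p was 0.128. At an unadjusted p under 0.05, 7 members were higher in dsl1, 14.3% of the 49 against 9.46% of all genes. These were MPH1, OsMYB2, MYBGA, TGAL1, OsBZIP23, TGA2.3 and WRKY9. Only UDT1 was lower at that level, 2.04% of the members against 5.52% of all genes. All 3 dsl1 values lay above all 3 WT values in 8 members, or 16.3%, against 15.0% of all genes, and below them in 1, against 9.33%. The member counts are thus near the background, and the single genes below are given as values that did not pass.

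**Figure D1:**
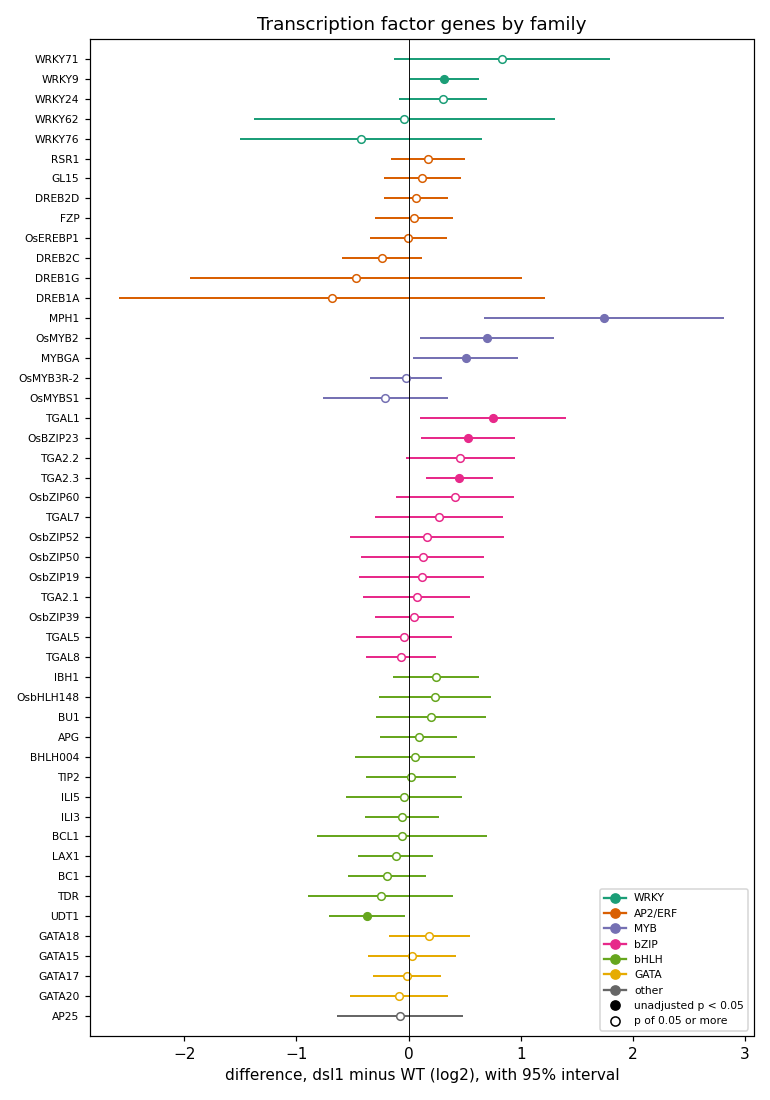
Difference between dsl1 and WT on the log2 scale for each of the 49 genes, grouped and coloured by family, with the 95% interval from limma as a bar. Filled points have an unadjusted p under 0.05. MPH1 lies farthest from 0, and the intervals of DREB1A, DREB1G, WRKY62 and WRKY76 are the widest.

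The 5 MYB genes held the member with the greatest difference. MPH1, a MYB-like gene known in rice to promote plant height, had log2 levels of 5.90, 5.67 and 6.63 in WT replicates 1 to 3 and 7.35, 8.80 and 7.28 in dsl1 replicates 1 to 3. The genotypes did not overlap, and dsl1 replicate 2 stood well above the other dsl1 arrays. The difference was 1.74 on the log2 scale, a 3.35-fold higher level, with a 95% interval of 0.68 to 2.81 and a limma adjusted p of 0.29. MPH1 was the only member to differ by at least 1 on the log2 scale, a size that 2.05% of all genes reached.

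OsMYB2, a stress-induced MYB gene tied to salt, cold and drought tolerance, was at 4.75, 5.42 and 4.68 in WT and at 5.57, 5.39 and 5.99 in dsl1. WT replicate 2 lay within the dsl1 values, so the genotypes overlapped. The difference was 0.70 (95% interval 0.11 to 1.29, adjusted p = 0.377). MYBGA, better known as GAMYB, which mediates the gibberellin response of the cereal aleurone and is needed in anthers, was at 5.74, 5.90 and 5.61 in WT and at 6.53, 6.37 and 5.89 in dsl1. Here dsl1 replicate 3 fell among the WT values, and the difference was 0.51 (95% interval 0.05 to 0.97, adjusted p = 0.394).

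The other MYB genes lay near or below 0. OsMYB3R-2, of a class of MYB proteins with 3 repeats linked to mitotic cyclin genes and cold tolerance, differed by -0.03 (95% interval -0.34 to 0.28). OsMYBS1, an activator of alpha-amylase genes under sugar starvation, was at 8.09, 8.60 and 7.86 in WT and at 7.89, 7.76 and 8.27 in dsl1, a difference of -0.21 (95% interval -0.76 to 0.34) that came down to -0.0015 without WT replicate 2. Over the 5 MYB genes the median difference was 0.51, which is the value of MYBGA, beside 0.02 over all genes. It ran from 0.38 without dsl1 replicate 1 to 0.58 without WT replicate 2. The family was also read by array, as the median of each gene's level minus its WT mean. This was -0.09, 0.15 and -0.14 in WT and 0.62, 0.44 and 0.14 in dsl1, so the genotypes overlapped.

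Most of the 13 bZIP genes lay on the higher side in dsl1, none of them past the adjusted test. The difference was above 0 in 11 of the 13 bZIP genes, beside 53.0% of all genes, and 3 had an unadjusted p under 0.05 on the higher side, beside 9.46% of all genes, and 0 on the lower side, beside 5.52%. The median difference was 0.16 and the range -0.07 to 0.75. The array that was left out mattered: with 1 array removed at a time, between 8 and 12 of the 13 lay above 0 and the median ran from 0.08 to 0.30. Of the 7 TGA and TGA-like genes 5 were higher, with a median of 0.27, and all 6 other bZIP genes were higher, with a median of 0.14.

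Among the TGA group, TGA2.3 had the most even arrays. It was at 6.13, 6.02 and 6.12 in WT and at 6.52, 6.46 and 6.64 in dsl1. The genotypes did not overlap, and the difference of 0.45 (95% interval 0.16 to 0.74, limma adjusted p = 0.302) was larger than the spread within either. TGA2.2, like TGA2.3 a partner of the rice NPR1 protein, was at 6.49, 6.70 and 6.78 in WT and at 6.91, 7.52 and 6.92 in dsl1. The genotypes were apart by a narrow gap, with dsl1 replicate 2 far above the others, and the difference was 0.46 (95% interval -0.01 to 0.94, adjusted p = 0.437), or 0.26 without that array. TGA2.1, the third of this trio and known in rice as a brake on resistance to bacterial blight, differed by 0.07 (95% interval -0.40 to 0.54), with WT arrays from 7.56 to 8.30 on either side of all 3 dsl1 arrays.

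TGAL1, a TGA-like gene, was at 5.69, 5.75 and 4.79 in WT and at 6.36, 6.11 and 6.03 in dsl1. The genotypes did not overlap, but WT replicate 3 lay almost 1 log2 unit under the other WT arrays. The difference was 0.75 with all arrays (95% interval 0.11 to 1.40, adjusted p = 0.379) and 0.44 without WT replicate 3. The remaining TGA-like genes were close to 0 or uncertain: TGAL7 differed by 0.27, from 0.027 without WT replicate 1 to 0.48 without WT replicate 3, TGAL5 by -0.04 and TGAL8 by -0.07.

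OsBZIP23, a main activator of the abscisic acid and drought response, was at 6.53, 6.63 and 7.04 in WT and at 7.11, 7.34 and 7.35 in dsl1. WT replicate 3 came within reach of dsl1 replicate 1 without crossing it. The difference was 0.53 (95% interval 0.12 to 0.94, limma adjusted p = 0.351). The genes that serve the unfolded protein response, in which an overloaded endoplasmic reticulum turns on chaperones, showed no common size of difference. OsbZIP60 differed by 0.41 (95% interval -0.10 to 0.93), OsbZIP50, whose transcript is spliced by the stress sensor IRE1, by 0.12, and OsbZIP39 by 0.05. OsbZIP52, a regulator linked to cold and drought sensitivity, differed by 0.16 and OsbZIP19 by 0.12, each with WT and dsl1 values that overlapped.

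**Figure D2:**
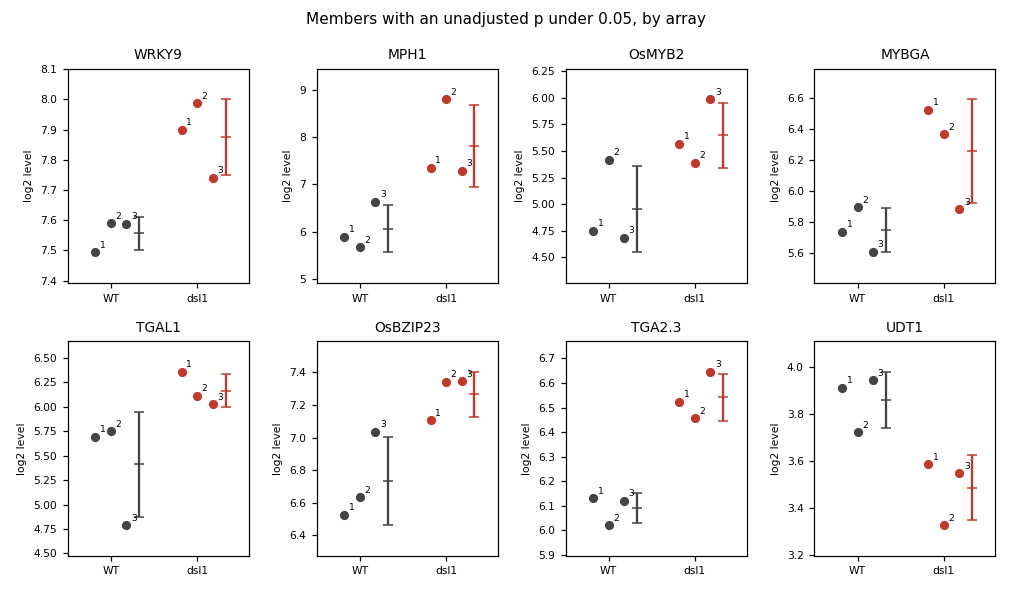
Log2 levels of the 8 genes with an unadjusted p under 0.05, 1 point per array with its replicate number, and the mean ± SD of 3 arrays beside each genotype. The genotypes overlap in OsMYB2 and MYBGA and are apart in the other 6 genes, and UDT1 is the one gene that is lower in dsl1.

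The 5 WRKY genes split into 3 on the higher side and 2 on the lower, where 53.0% of all genes were higher. WRKY9 was at 7.49, 7.59 and 7.59 in WT and at 7.90, 7.99 and 7.74 in dsl1. The genotypes did not overlap, and the difference was small, 0.32 (95% interval 0.02 to 0.62, limma adjusted p = 0.407). WRKY24, a repressor of gibberellin and abscisic acid signalling in the aleurone, was at 5.07, 5.38 and 5.59 in WT and at 5.70, 5.64 and 5.62 in dsl1. The 3 dsl1 arrays were nearly equal and sat just above the highest WT array, with a difference of 0.31 (95% interval -0.08 to 0.69, adjusted p = 0.502).

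WRKY71, known both for repressing gibberellin-induced alpha-amylase in the aleurone and for a part in defence, was at 5.92, 7.39 and 7.20 in WT and at 7.88, 7.24 and 7.90 in dsl1. Without WT replicate 1, the lowest array by far, the genotypes lay much closer, and the difference went from 0.84 to 0.38. With all arrays its 95% interval was -0.12 to 1.79 and its adjusted p 0.472.

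WRKY62 and WRKY76 are neighbours on chromosome 9 with no other gene of the reference between them, and both are known in rice as repressors of defence against blast and bacterial blight. WRKY62 was at 3.62, 3.75 and 5.53 in WT and at 3.99, 5.02 and 3.78 in dsl1. WRKY76 was at 5.48, 5.71 and 7.18 in WT and at 5.42, 6.15 and 5.53 in dsl1. In both genes WT replicate 3 and dsl1 replicate 2 were the high arrays of their genotype, so the spread ran within the genotypes and not between them. The differences were -0.04 for WRKY62 (95% interval -1.37 to 1.29) and -0.42 for WRKY76 (95% interval -1.50 to 0.65), and without WT replicate 3 they were 0.58 and 0.11. Whether the probes of this close pair can tell their transcripts apart was not tested. Over the 5 WRKY genes the median difference was 0.31, from 0.17 without WT replicate 1 to 0.43 without WT replicate 3. By array, the median of each gene's level minus its WT mean was -0.64, 0.03 and 0.36 in WT. In dsl1 it was 0.34, 0.40 and 0.18, so WT replicate 3 lay above dsl1 replicates 1 and 3.

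The 8 AP2/ERF genes were evenly divided, 4 higher and 4 lower, where 53.0% of all genes were higher, with a median difference of 0.02. An unadjusted p under 0.05 was reached by 0 of the 8, against 15.0% of all genes, and 8 genes are too few to tell these apart. The DREB1 genes, which drive the cold response, had the widest spread in dsl1, while in WT WRKY62 and WRKY76 spread more. DREB1A was at 6.48, 6.38 and 4.99 in WT and at 6.55, 3.48 and 5.79 in dsl1. Its low arrays were WT replicate 3 and dsl1 replicate 2, the same arrays that were high in WRKY62 and WRKY76. These arrays were also the highest of their genotype in MPH1, the member with the greatest difference. DREB1G was at 4.32, 5.70 and 5.07 in WT and at 5.96, 3.76 and 3.97 in dsl1, and shared with DREB1A the high dsl1 replicate 1 and the low dsl1 replicate 2. The differences were -0.68 for DREB1A (95% interval -2.57 to 1.21) and -0.47 for DREB1G (95% interval -1.94 to 0.9996). Without dsl1 replicate 2 that of DREB1A turned to 0.22, and that of DREB1G ran from -1.17 to -0.07 with 1 array left out. Both intervals reach well below and well above 0, so the data set no useful bound on either gene.

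DREB2C and DREB2D, of the group better known from drought and heat, gave low signals in every array. DREB2C was at 3.66, 3.81 and 3.52 in WT and at 3.62, 3.31 and 3.35 in dsl1, a difference of -0.24 (95% interval -0.59 to 0.11). DREB2D was at 3.46 to 3.52 in WT and 3.52 to 3.63 in dsl1, just apart and with a difference of 0.07 (95% interval -0.21 to 0.34). FZP, which sets spikelet meristem identity in the panicle, was at 1.88 to 2.19 in WT and 1.96 to 2.21 in dsl1, near the bottom of the array's range in both.

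The remaining AP2/ERF genes varied less between arrays than the DREB1 genes. RSR1, a repressor of starch synthesis genes in the seed, was at 10.86, 10.62 and 10.73 in WT and at 10.90, 10.79 and 11.04 in dsl1, a difference of 0.17 (95% interval -0.15 to 0.49). OsEREBP1, an ethylene response factor that is a target of a rice MAP kinase, was at 10.49, 10.55 and 10.76 in WT and at 10.44, 10.70 and 10.64 in dsl1. Its difference was -0.0033 with a 95% interval of -0.34 to 0.33, so a change beyond that size lay outside the interval. GL15, named after the maize gene that keeps leaves juvenile, differed by 0.12 (95% interval -0.21 to 0.46).

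**Figure D3:**
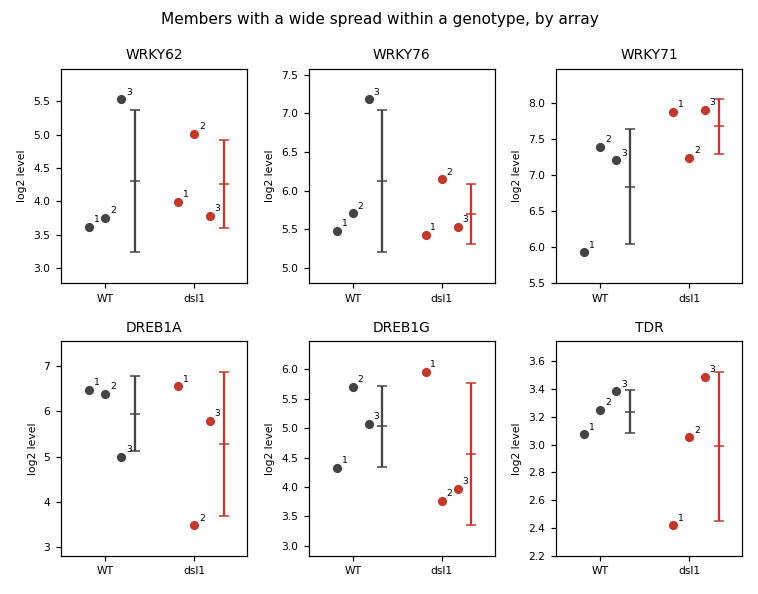
Log2 levels of 6 genes whose range within a genotype exceeds 1 on the log2 scale, 1 point per array with its replicate number, and the mean ± SD of 3 arrays beside each genotype. WT replicate 3 and dsl1 replicate 2 are the highest arrays of their genotype in WRKY62 and WRKY76 and the lowest in DREB1A, while WRKY71 has its low array in WT replicate 1 and TDR in dsl1 replicate 1.

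The 13 bHLH genes showed no common direction, with 6 higher, 7 lower and a median difference of -0.04, where 53.0% of all genes were higher. A first group acts in brassinosteroid signalling and organ bending or length. In it BU1, ILI3 and ILI5 are small proteins that promote cell elongation, IBH1 and APG are the partners that such proteins hold back, and BC1 binds ILI5, with BCL1 its close relative. Of these 7 genes 3 were higher and 4 lower, with a range of -0.19 to 0.24. An unadjusted p under 0.05 was reached by 0 of the 7, against 15.0% of all genes, and 7 genes are too few to tell these apart. BU1 was at 5.27, 5.56 and 5.05 in WT and at 5.51, 5.20 and 5.77 in dsl1, a difference of 0.20 (95% interval -0.28 to 0.68). Its arrays were mixed between the genotypes.

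IBH1, at 6.86, 6.68 and 6.64 in WT and 7.23, 6.78 and 6.91 in dsl1, differed by 0.24 (95% interval -0.13 to 0.62). BC1, at 7.13, 7.26 and 7.01 in WT and 7.08, 6.97 and 6.77 in dsl1, differed by -0.19 (95% interval -0.53 to 0.15). ILI3 differed by -0.06 (95% interval -0.38 to 0.27), ILI5 by -0.04 and APG by 0.09. In ILI3 all 6 arrays lay between 7.01 and 7.34, whereas BCL1, with a difference of -0.06, had 1 high array in each genotype, at 8.70 in WT replicate 2 and at 8.43 in dsl1 replicate 1.

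A second group, TDR, UDT1 and TIP2, directs the tapetum, the nurse tissue of the anther, which these vegetative apices should lack. All 3 gave low signals. UDT1 was at 3.91, 3.72 and 3.94 in WT and at 3.58, 3.33 and 3.55 in dsl1. The genotypes did not overlap, and the difference was -0.37 (95% interval -0.70 to -0.05, limma adjusted p = 0.387). At such a signal the size is uncertain: with clusters sorted by signal into 5 groups of one size, the dimmest group averaged 2.81 and the next 4.26. TDR differed by -0.25 (95% interval -0.89 to 0.39), with dsl1 arrays from 2.42 to 3.49 around the WT values, and TIP2 by 0.02.

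LAX1, which starts axillary meristems, was at 4.44, 4.18 and 4.12 in WT and at 4.18, 4.07 and 4.14 in dsl1. WT replicate 1 alone stood above the rest, and the difference was -0.11 (95% interval -0.44 to 0.21). OsbHLH148, of the jasmonate and drought response, had WT values of 2.53, 3.24 and 3.20 and dsl1 values of 3.21 to 3.25, so that its difference of 0.24 came with 1 low WT array and was 0.0072 without it. BHLH004 differed by 0.06 (95% interval -0.47 to 0.58).

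The 4 GATA genes stayed within 0.19 of 0. GATA15, also called NL1, which holds back the leaf at the neck of the panicle, was at 4.05, 4.34 and 4.20 in WT and at 4.005, 4.46 and 4.22 in dsl1, a difference of 0.03 (95% interval -0.36 to 0.42). GATA17, GATA18 and GATA20 carry a TIFY motif beside the zinc finger. GATA17 was the steadiest, between 7.19 and 7.38 in all 6 arrays, with a difference of -0.01 (95% interval -0.30 to 0.28). GATA18 differed by 0.19 (95% interval -0.16 to 0.53) and GATA20 by -0.09 (95% interval -0.52 to 0.34). AP25, outside the families, differed by -0.08 (95% interval -0.63 to 0.48), with WT replicate 2 at 8.33 above arrays of 7.47 to 7.85.

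Which array was left out decided how many of the 8 genes kept an unadjusted p under 0.05. MPH1 and TGA2.3 kept it with each of the 6 arrays removed in turn, with p up to 0.0226 and 0.0319. TGAL1 kept it in 4 of the 6 cases, OsMYB2 in 3, MYBGA, OsBZIP23 and UDT1 in 2, and WRKY9 in 1. The highest p were 0.0821 for TGAL1 without dsl1 replicate 1, 0.0896 for OsMYB2 without dsl1 replicate 3 and 0.113 for MYBGA without dsl1 replicate 1. They were 0.0602 for OsBZIP23 without WT replicate 1, and 0.104 for UDT1 and 0.125 for WRKY9, both without dsl1 replicate 2. The direction held in all 8. WT replicate 3 correlated as well with the dsl1 arrays, at a mean of 0.976 over all clusters, as with the other WT arrays, at 0.975. Without it MPH1 differed by 2.03, OsBZIP23 by 0.68, TGA2.3 by 0.47 and OsMYB2 by 0.56. TGAL1 then differed by 0.44, MYBGA by 0.44, WRKY9 by 0.33 and UDT1 by -0.33. The unadjusted limma p was then above 0.05 for OsMYB2 (0.0878), MYBGA (0.100), WRKY9 (0.0713) and UDT1 (0.0877).

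Signal strength moved with the direction of change over all genes. The members had a median level at percentile 65.4 of all clusters, and all genes at 64.1. Clusters were sorted into 5 equal groups by mean level, from group 1, the dimmest, to group 5. The members numbered 6, 8, 6, 21 and 8 in groups 1 to 5, and all genes 1714, 2283, 2861, 3969 and 4313. In group 4, which held 21 members, 57.2% of all genes had a difference above 0, with a median of 0.04. In group 1 it was 39.4%, with a median of -0.06. Over the 49 members 29 had a difference above 0, or 59.2%, against 53.0% of all genes, and the median was 0.06. The part of signal strength in these counts was not tested.

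**Figure D4:**
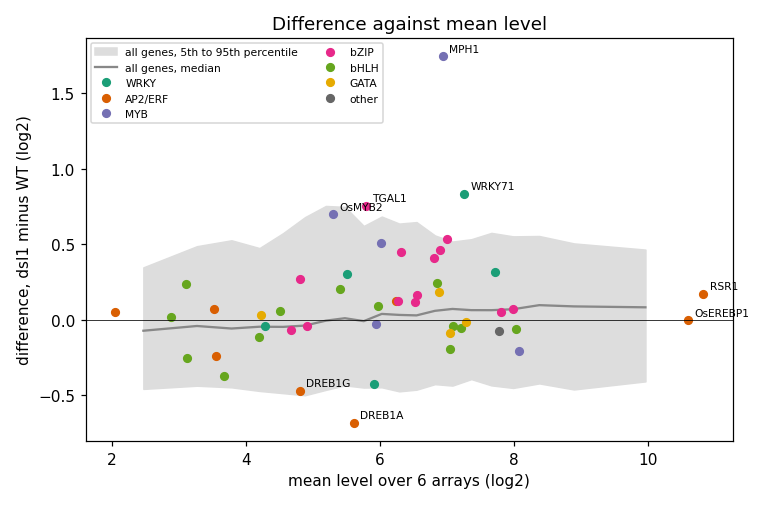
Difference between dsl1 and WT against the mean log2 level of the 6 arrays for the 49 genes, coloured by family, over the median (line) and the 5th to 95th percentile (band) of all genes in 20 bins of level. MPH1 is far above the band, WRKY71 and TGAL1 are above it and OsBZIP23 is at its upper edge, DREB1A lies below it, and the pair of strongest signals, RSR1 and OsEREBP1, lie near 0.

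The spread within a genotype was uneven. The range over 3 arrays exceeded 1 on the log2 scale in 5 members in WT (WRKY62, WRKY71, WRKY76, DREB1A and DREB1G) and in 5 in dsl1 (WRKY62, DREB1A, DREB1G, MPH1 and TDR), beside 5.70% and 3.39% of all genes. The median range was 0.37 in WT and 0.33 in dsl1, against 0.37 and 0.30 for all genes. WT replicate 2 was the highest WT array in 25 of the 49 members, replicate 1 in 10 and replicate 3 in 14. In dsl1 the highest array was replicate 1 in 19, replicate 2 in 13 and replicate 3 in 17.

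Genes that work with these factors were measured beside them. The defence list, matched by symbol or synonym, came to hold NPR1-type co-receptors and MAP kinases. Of its 16 genes 12 were higher and 4 lower, where 53.0% of all genes were higher, with a median of 0.11. An unadjusted p under 0.05 was reached by 0 of them, against 15.0% of all genes. On the higher side MPK16 had the smallest p, with a difference of 0.32, and on the lower side NH2, an NPR1-like gene, with -0.25. NH1, the rice NPR1 gene that TGA2.2 and TGA2.3 bind, differed by 0.09. The abscisic acid and drought list held 40 genes, most of them PP2C phosphatases, of which only some act in abscisic acid signalling. In dsl1, 5 of them were up and 1 was down at an unadjusted p under 0.05, where 9.46% and 5.52% of all genes were, with a median of 0.07 and none called. LEA19, a late embryogenesis abundant gene, was at 1.76, 2.40 and 2.13 in WT and at 4.80, 4.14 and 4.96 in dsl1 (adjusted p = 0.078). Its WT values lie under the mean of the dimmest group, 2.81, so the size of the difference is uncertain. OsPP2C59 was at 6.02, 5.84 and 5.64 in WT and at 7.69, 8.47 and 8.58 in dsl1, all well above that mean. Its difference was 2.41 (limma adjusted p = 0.0801). OsPP2C49 differed by -0.34.

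Other factor families were counted in the same way, against the same 9.46% higher and 5.52% lower over all genes. At an unadjusted p under 0.05, 2 of 14 heat shock factors and 3 of 17 HOX genes were higher and 0 lower, with medians of 0.05 and 0.15. Of the 7 NAC genes 3 were higher and 0 lower, with a median of 0.36, and of the 21 MADS-box genes 3 were higher and 1 lower, with a median of 0.0025. None passed the adjusted test, and no difference between families was tested.

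The tissue label was checked against marker genes. Of 6 measured meristem markers 3 were higher in dsl1 and 3 lower, and 2 lay above the median of all clusters. Mean log2 levels in WT and dsl1 were 4.93 and 5.08 for OSH1, 5.34 and 5.69 for OSH15 and 4.29 and 4.86 for OSH71. They were 5.54 and 5.26 for WOX4, 5.31 and 5.23 for FON1 and 4.66 and 4.46 for RFL. All 7 measured genes of the leaf primordia list lay above that median, 2 of them higher in dsl1 and 5 lower, with differences from -0.25 for DL to 0.11 for YAB2. That median is a low bar, since the median of all genes was at percentile 64.1 of all clusters. YAB4 (54.1), PLA1 (58.6) and a YAB3 gene (55.6) lay under that percentile, and the other leaf primordia genes above it. The 4 greening leaf genes lay above the median of all clusters too, 1 higher and 3 lower, with CAB2R at 10.7 and 10.5 and CHLH at 8.07 and 8.22. Summed on the linear scale, the 4 greening leaf markers ran from 2576 to 3027 in WT and from 1918 to 2744 in dsl1, and the 6 meristem markers from 195 to 209 and from 186 to 236. The root list gave 90.6 to 95.6 in WT and 84.7 to 89.6 in dsl1 over 3 genes, 1 of them above the median of all clusters. In WT and dsl1 the root meristem gene WOX5 was at 3.81 and 3.69, LSI2 at 4.89 and 4.95 and SHR1 at 5.63 and 5.44. The seed storage list gave 328 to 370 and 295 to 341 over 5 genes, 3 of them above that median, with 1 higher in dsl1 and 4 lower. At an unadjusted limma p under 0.05, 2 meristem markers, OSH15 and OSH71, were higher, and 2 seed genes, GLUA1 and GluB5, lower. Over all genes the shares were 9.46% higher and 5.52% lower. The part of tissue makeup in the differences above was not tested, and in such samples fewer cells of a type and less RNA per cell cannot be told apart.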

How the data were processed

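Transcript levels of 6 rice shoot apex samples, 3 WT and 3 dsl1, were taken from the authors' deposited table of log2 values, with 54922 clusters per array. The submitters' processing notes name Affymetrix Expression Console 1.3. How it corrected background, normalised and summarised probes, and on which genome build, is not stated in what was used here. Array medians were 5.30 to 5.40, and no further scaling was applied. No pair of arrays shared more than 34 equal values. Precision is limited by the number of arrays.

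Names came from GEO's table for this array: 15829 clusters list 1 gene and 440 list several, the rest being unnamed here. All 15829 matched the gene reference (assembly ASM3414082v1). Where a gene had several clusters, the one with the highest mean was used.

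limma 3.58.1 in R 4.3.3 (lmFit, eBayes, 2-sided) compared dsl1 with WT over all clusters, with Benjamini-Hochberg adjustment and a threshold of 0.05. The fit was tested on simulated data. Intervals are limma's at 95%. The members, families, lists and naming rule were chosen with earlier results of these data known. The rule took, per family, the members called, the 4 higher and 3 lower with the smallest p and the 2 with the highest mean level, and from each related list the members called or the smallest p in each direction. It named 39 members, and the other 9, with AP25, NH1, OsPP2C59 and the marker genes, complete the account. For the HSF, HOX, NAC and MADS lists only counts are given. Alternatives were other scalings, filters, priors, array weights, a replicate block, a fold minimum and leaving out each array.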

Additional observations from a re-analysis of the deposited data

How the results depend on the processing

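The count of members called was 0 under every alternative run, with a smallest adjusted p of 0.128 to 0.508. The counts at an unadjusted p under 0.05 depended on the arrays. With 1 array left out, 3 to 6 members were higher, against 7, and 0 to 2 lower, against 1. The lowest count on the higher side, 3, came without WT replicate 1, and without dsl1 replicate 2 it was 4. A fold minimum of 1 on the log2 scale left 1 higher and 0 lower. Leaving out the dimmest 33.3% of clusters, which kept 39 members, left 0 lower, since UDT1 was no longer fitted. Among the 3 members matched by their own symbol 0 were higher and 0 lower. With the replicate block 5 were higher and 1 lower. The numbers mark no known pairing: same-numbered arrays correlated at -0.13 to -0.05 in their deviations, and each array correlated best with one of another number (0.12 to 0.20). Without AP25 the counts were 7 and 1, an alternative chosen after seeing the data.

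With 1 array left out, the median difference was 0.076 to 0.30 for bZIP and -0.13 to 0.090 for bHLH. The direction of 23 members, none with an unadjusted p under 0.05, changed with at least 1 alternative. Other than by leaving out an array, it changed for OsEREBP1, at 0.0012 after quantile normalisation and 0.0028 after median centring, and with array weights for ILI5 (0.028), BCL1 (0.042), GATA17 (0.0088) and AP25 (0.0060). With 1 array left out, the differences ran from -0.41 to 0.58 for WRKY62, -0.74 to 0.11 for WRKY76, -0.022 to 0.13 for FZP, -0.059 to 0.077 for OsEREBP1 and -1.32 to 0.22 for DREB1A. They ran from -0.081 to 0.042 for OsMYB3R-2, -0.035 to 0.45 for OsbZIP52, -0.10 to 0.28 for OsbZIP50, -0.029 to 0.33 for OsbZIP19, -0.12 to 0.25 for TGA2.1 and -0.014 to 0.14 for OsbZIP39. Those of TGAL5 ran from -0.14 to 0.10, of TGAL8 from -0.11 to 0.0093, of BHLH004 from -0.13 to 0.26, of TIP2 from -0.093 to 0.17, of ILI5 from -0.23 to 0.096 and of ILI3 from -0.14 to 0.026. Those of BCL1 ran from -0.28 to 0.26, of TDR from -0.50 to 0.033, of GATA15 from -0.084 to 0.14, of GATA17 from -0.059 to 0.035, of GATA20 from -0.24 to 0.013 and of AP25 from -0.25 to 0.18. The cause was not tested. The other 26 members kept their direction in every alternative. Of these, 17 moved by over 1.5 times with some array left out. The 9 that did not were MPH1, OsMYB2, MYBGA, OsBZIP23, TGA2.3, OsbZIP60, WRKY9, DREB2C and UDT1. In all, 777 of 823 member values kept side and direction. Many of these could not change direction, since filters, priors, the replicate block and the fold minimum leave a member's difference as it was. The mean over clusters of a gene equals the value used, as each member has 1 cluster.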
